A study of Homo sapiens with 6 samples.

Results

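ANKRD46, CARNMT1, TMEM87B and METAP1 are 4 genes of no shared family that were lower with an siRNA against DKK2 than with a control siRNA or an siRNA against ITM2A, by a similar size in both cell lines studied. They are 4 of 18417 genes measured, and each is represented by a single probe set (8152053, 8161829, 8044417 and 8096556). The members were chosen by these same differences, siDKK2 minus control and siDKK2 minus siITM2A in each line, so their values in those contrasts are a description and carry no test. The study hybridised total RNA to 6 Affymetrix whole-transcript arrays. The RNA came from A673 and SK-N-MC, cell lines derived from Ewing sarcoma, a cancer arising mainly in bone. In each line 1 array followed transfection with the DKK2 siRNA numbered 1 (siDKK2), 1 followed an ITM2A siRNA (siITM2A), and 1 followed a non-silencing siRNA (control). Sample titles give the ITM2A siRNA as number 7 for A673 but number 1 for SK-N-MC. Where a pair of values is given below without line names, A673 comes before SK-N-MC. A single DKK2 siRNA was used in both lines, and no array combined it with restored DKK2. Loss of DKK2 and effects of that siRNA on other transcripts therefore cannot be told apart for any gene described here.

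An siRNA is loaded into an Argonaute protein and directs it to a matching messenger RNA, and its seed region can also guide the complex to partly matching transcripts that were not intended. DKK2 itself is a secreted modulator of Wnt signalling. The 4 genes encode unrelated proteins. METAP1 is a methionine aminopeptidase that removes the starting methionine from new proteins. CARNMT1 is a methyltransferase that converts the dipeptide carnosine to anserine. TMEM87B is a Golgi membrane protein with a role in transport from endosomes to the Golgi, and ANKRD46 is an ankyrin-repeat protein whose function is little known. None is a classical interferon-induced gene, whereas such genes held most of the top places when all genes were ordered by the smaller of their decreases in the 2 lines.

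RefSeq promoter sequences (GRCh38.p14) were matched for 3 of the 4 genes, CARNMT1, TMEM87B and METAP1. The 250 bases before the annotated start are shown 5′ to 3′ to set them beside the promoter of IFIT1, the interferon-induced gene that came first in that order. Capitals mark the GC box GGGCGG, read on either strand, in the first 3 sequences and the core of the interferon-stimulated response element, GAAANNGAAA on either strand, in IFIT1. CARNMT1 has 3 annotated starts, and the most upstream is shown.
CARNMT1, chr9:75028431-75028680, minus strand: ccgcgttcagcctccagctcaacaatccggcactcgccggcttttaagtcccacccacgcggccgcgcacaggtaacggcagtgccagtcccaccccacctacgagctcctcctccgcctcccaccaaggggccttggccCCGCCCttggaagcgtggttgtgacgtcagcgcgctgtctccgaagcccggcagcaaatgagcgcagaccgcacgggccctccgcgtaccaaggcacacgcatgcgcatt
TMEM87B, chr2:112055019-112055268, plus strand: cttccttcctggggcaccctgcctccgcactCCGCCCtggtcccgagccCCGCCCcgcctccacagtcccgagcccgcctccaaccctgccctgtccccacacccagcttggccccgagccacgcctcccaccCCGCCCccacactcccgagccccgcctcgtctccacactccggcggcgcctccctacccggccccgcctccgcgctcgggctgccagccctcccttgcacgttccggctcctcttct
METAP1, chr4:98995471-98995720, plus strand: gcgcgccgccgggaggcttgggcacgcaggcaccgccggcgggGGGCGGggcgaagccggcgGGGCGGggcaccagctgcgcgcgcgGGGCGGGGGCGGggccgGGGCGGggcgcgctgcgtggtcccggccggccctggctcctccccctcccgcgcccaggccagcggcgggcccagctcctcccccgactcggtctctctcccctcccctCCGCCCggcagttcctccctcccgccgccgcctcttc
IFIT1, chr10:89392373-89392622, plus strand: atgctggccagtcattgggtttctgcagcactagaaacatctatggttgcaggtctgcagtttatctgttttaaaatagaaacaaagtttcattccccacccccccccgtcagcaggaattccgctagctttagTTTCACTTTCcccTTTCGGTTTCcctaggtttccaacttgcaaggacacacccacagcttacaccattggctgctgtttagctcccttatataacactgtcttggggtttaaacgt

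The 3 windows shown were rich in G and C, at 67.2% for CARNMT1, 75.6% for TMEM87B and 84.4% for METAP1, against 46% for IFIT1 and a median of 58% over 27305 promoters of the same length. The other CARNMT1 starts were at 71.6% with 2 GC boxes and at 36.4% with 0, the second of these below the lower quartile of 46% over all promoters. METAP1 held 6 GC boxes, TMEM87B 3 and the CARNMT1 window shown 1, and 42.3% of all promoters held at least 1. The interferon element core had 0 matches in each of the 3, nor did it match at the other CARNMT1 starts, while IFIT1 held 2 matches. It was present in 3.07% of all promoters and in 13 of 23 promoters of the interferon-response list. CTTTGAT, a site letter string of the Wnt effectors TCF and LEF, also had 0 matches in each of the 3 (2.28% of all promoters). TMEM87B held 1 match to GGAAGGAA (2.99% of promoters), a short form of the GGAA repeat to which the Ewing fusion protein binds. CARNMT1 held 1 cAMP response element, TGACGTCA (1.77% of promoters), at 2 of its 3 starts. The windows of those 2 starts overlap, so they share this same element and 1 GC box. The letters searched were chosen with these sequences in view. A match is a string of letters in this window and not a measured site, and a missing match says nothing of the factor.

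ANKRD46 had the largest difference of the 4. It stood at 3.59 on the log2 scale with siDKK2 in A673, against 5.36 with siITM2A and 5.35 with control. In SK-N-MC it stood at 3.51 with siDKK2, 5.48 with siITM2A and 5.49 with control. Both siDKK2 arrays were thus low and the other 4 arrays lay within a narrow band. The siDKK2 arrays lay below all 4 others, as in 5.89% of all genes, and ANKRD46 was chosen for such decreases. The differences from control were -1.77 and -1.98, so 29.4% and 25.4% of the control level remained. Against siITM2A they were -1.78 and -1.98. With siDKK2 the gene ranked above 45.1% and 43.7% of all genes, against 67.1% and 69.1% with control. Its siDKK2 values lay close to the medians of those arrays over all probe sets, 3.35 and 3.39. In bulk RNA of a culture, fewer cells that express a gene and less RNA per cell cannot be told apart. Background was not measured, and a value near the floor of such an array understates a decrease.

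CARNMT1 stood at 4.48 with siDKK2 in A673, against 5.30 with siITM2A and 5.54 with control. In SK-N-MC it stood at 4.63 with siDKK2, 6.26 with siITM2A and 6.15 with control. The siDKK2 arrays of both lines ended at nearly the same level although the lines differed without that siRNA. The differences from control were -1.06 and -1.52, leaving 47.9% and 34.8%. Against siITM2A they were -0.82 and -1.64, the widest gap between lines among the 4 genes at 0.82, so CARNMT1 was the least even of them.

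TMEM87B stood at 4.96 with siDKK2 in A673, against 6.15 with siITM2A and 5.80 with control. In SK-N-MC it stood at 3.89 with siDKK2, 5.05 with siITM2A and 5.07 with control. Within each line the siDKK2 array was lowest, and the A673 siDKK2 value lay just under the SK-N-MC arrays without siDKK2. The differences from control were -0.84 and -1.19, leaving 55.8% and 44.0%. Against siITM2A the lines were closer, at -1.20 and -1.16.

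METAP1 was the most strongly expressed of the 4, with a mean level above 95.8% of genes. It stood at 7.58 with siDKK2 in A673, against 8.19 with siITM2A and 8.46 with control. In SK-N-MC it stood at 7.64 with siDKK2, 8.11 with siITM2A and 8.58 with control. The difference from control was -0.88 and -0.94, leaving 54.3% and 52.1%, a gap between lines of 0.06. Against siITM2A the difference was -0.61 and -0.47, the smallest of the 4 genes, and the siITM2A arrays were themselves below control.

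**Figure D1:**
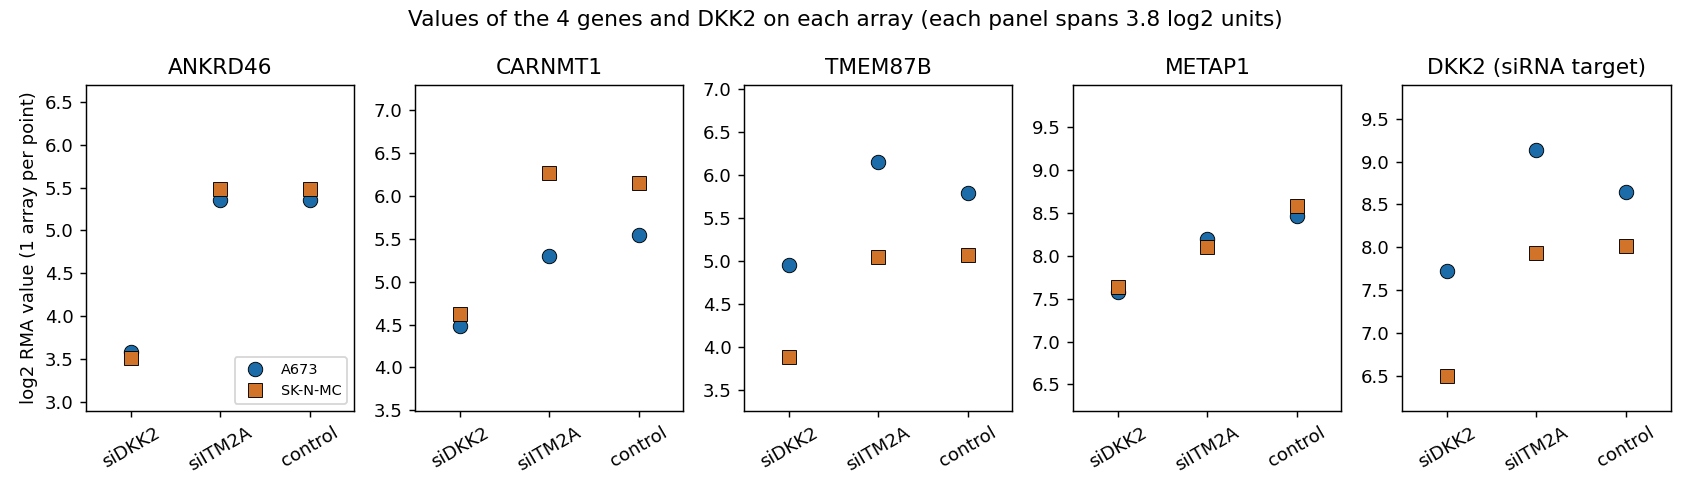
Log2 RMA value on each of the 6 arrays (y axis, each panel 3.8 units high) for the 4 genes and DKK2, with siDKK2, siITM2A and control on the x axis. Each point is 1 array, circles for A673 and squares for SK-N-MC. The siDKK2 points are the lowest of their line in every panel, and METAP1 alone of the 4 also has siITM2A points below control in both lines.

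Over the lines, ANKRD46 averaged 3.55 ± 0.05 with siDKK2, 5.42 ± 0.09 with siITM2A and 5.42 ± 0.09 with control (SD, n = 2 lines). METAP1 averaged 7.61 ± 0.04, 8.15 ± 0.06 and 8.52 ± 0.08 in the same order. The spread between lines was larger for CARNMT1, at 4.55 ± 0.10 with siDKK2, 5.78 ± 0.68 with siITM2A and 5.85 ± 0.43 with control. TMEM87B averaged 4.42 ± 0.76, 5.601 ± 0.78 and 5.43 ± 0.51. All 4 genes had both siDKK2 arrays below all 4 others, as did 5.89% of all genes. The choice of members fixed that order within each line and favoured it across the lines.

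The siITM2A arrays show how the 4 genes stood when another gene was silenced. The difference between siITM2A and control is what separates the contrasts that chose the genes, so the values are given without a test. ANKRD46 differed from control by 0.00755 and -0.00139. CARNMT1 differed by -0.25 and 0.11, and TMEM87B by 0.36 and -0.02. METAP1 was lower in both lines, by values of -0.27 and -0.47, nearer to control than its siDKK2 arrays. Over all genes 2 were called, meaning a limma p adjusted over all genes under 0.05, for siITM2A against control (0.0109%), ITM2A and BTG3, neither of them 1 of the 4. ITM2A itself was lower with siITM2A than with control by values of -3.50 and -3.39 (limma adjusted p = 0.000442).

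DKK2, the target, followed the same order. It stood at 7.73 with siDKK2 in A673, against 9.13 with siITM2A and 8.64 with control, and at 6.504, 7.94 and 8.01 in SK-N-MC. The siDKK2 arrays kept 53.0% and 35.1% of the control level of DKK2. The share left of ANKRD46 was smaller than that of DKK2 in both lines, as was that of CARNMT1 (by under 1 percentage point in SK-N-MC), and the shares of TMEM87B and METAP1 were larger in both. All 4 genes, like DKK2, were lower by more in SK-N-MC than in A673 against control, with gaps of 0.06 to 0.46 for the 4 and 0.59 for DKK2. Against siITM2A the order was reversed for TMEM87B (-1.20 and -1.16) and METAP1 (-0.61 and -0.47). It held there for ANKRD46 (-1.78 and -1.98) and CARNMT1 (-0.82 and -1.64), and DKK2 was nearly even (-1.40 and -1.43). The share of all genes with either order was not counted.

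Against control, interferon-response genes had the opposite order between the lines. All 28 measured genes of that list had a more negative difference in A673, with list medians of -2.84 (A673) against -0.69 (SK-N-MC). The list's median level was 3.64 with siDKK2 in A673, against 5.43 with siITM2A and 6.30 with control. In SK-N-MC it was 3.29 with siDKK2, against 3.77 with siITM2A and 4.21 with control. With siDKK2 the list thus stood near the array medians of 3.35 and 3.39 in both lines, and the SK-N-MC control was already closer to that level. The part of this lower start in the order between lines was not tested. The gap between lines had a median of 2.06 in that list, a range of 0.30 to 3.22, and exceeded the largest gap of the 4 genes in 27 of 28. Over all genes the median gap was 0.205, and of the 4 genes only METAP1 (0.06) lay below it. IFIT1, whose interferon-induced product binds viral RNA, stood at 3.41 with siDKK2 in A673, against 7.39 with siITM2A and 8.12 with control. In SK-N-MC it stood at 3.15 with siDKK2, 4.81 with siITM2A and 5.10 with control. The control arrays thus already differed between lines by 3.02 for IFIT1, while those of ANKRD46 differed by -0.13 (A673 minus SK-N-MC). Of the interferon list 0 passed the limma test against control over all genes (26 at an unadjusted p under 0.05, and 3 called with an intensity trend). Evenness between lines was part of how the 4 genes were chosen, so this contrast is a description.

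**Figure D2:**
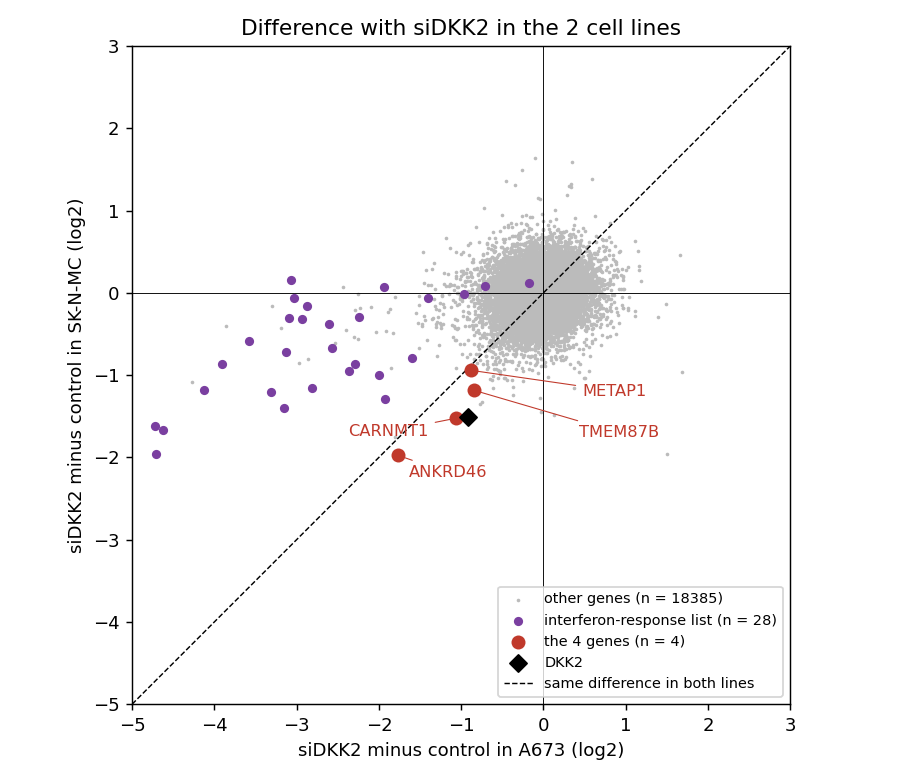
Difference between siDKK2 and control in A673 (x axis) and in SK-N-MC (y axis), both in log2 units, with 1 point per gene for 18417 genes. The 4 genes and DKK2 lie below the dashed line of equal difference, and the genes of the interferon-response list all lie above it, with a median of -2.84 on the x axis and -0.69 on the y axis.

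In the order of all genes by the smaller of the decreases in the 2 lines, siDKK2 against control, ANKRD46 came at place 2, CARNMT1 at 12, METAP1 at 18 and TMEM87B at 24. Most of the first 13 places were held by the interferon list. ATP6V1D, a subunit of the vacuolar proton pump, came at 3 (-1.81 and -1.76), the chemokine gene CXCL10 at 11 (-4.27 and -1.09) and the kinase gene EIF2AK2, of the interferon list, at 13 (-1.997 and -1.004). DKK2 came at 15. METAP1 was followed directly by SMAD1, a transducer of bone morphogenetic protein signals (-0.88 and -0.93). TMEM87B was followed by BNIP2 (-0.82 and -0.96) and the centromere gene CENPC (-0.81 and -0.85). SMAD1 and CENPC had gaps between lines within the range of the 4 genes or below it, so the 4 are a selection from a longer run. At or above the median level of 4.04, 53 genes had all 4 differences (siDKK2 against each other siRNA in each line) at or below -0.47, the weakest value among the 4 genes. Of these, 28 also had gaps between lines no wider than the widest of the 4 genes, which were 0.46 against control and 0.82 against siITM2A. These 28 include the 4 genes, ATP6V1D, SMAD1, BNIP2, CENPC, the chaperone gene DNAJA1 and the metalloproteinase gene ADAM9, and 0 genes of the interferon list. Before the limit on gaps, 14 of the 53 belonged to that list. The limits were taken from the 4 genes, which were chosen as even and as not interferon genes, so that 0 was largely set by the choice.

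By limma, 2 of 18417 genes were called for siDKK2 against control (0.0109%), ANKRD46 and ATP6V1D, and 3 for siDKK2 against siITM2A (0.0163%), the same pair and ITM2A. At least 2-fold lower in both lines were 13 genes against control (0.0706%), among them ANKRD46 and CARNMT1, and 9 against siITM2A (0.0489%), among them ANKRD46 and TMEM87B. These contrasts chose the 4 genes, so the counts are given for scale. At an unadjusted p under 0.05 there were 1598 genes against control and 1533 against siITM2A. The count against control was 0 without the siDKK2 array of A673 or without either siITM2A array, 45 without the control array of SK-N-MC and 60 without its siDKK2 array. The count against siITM2A was 1 without either siITM2A array, 18 without either control array and 50 without the siDKK2 array of SK-N-MC. The 2 lines were the replicates, each with 1 array per siRNA, and their number limits the precision.

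The levels of the 4 genes without regard to siRNA differed between the lines in different ways. TMEM87B was higher in A673 in 3 of 3 siRNAs, by 1.07 with siDKK2, 1.11 with siITM2A and 0.73 with control. CARNMT1 was lower in A673 in 3 of 3 siRNAs, with differences (A673 minus SK-N-MC) of -0.15 for siDKK2, -0.97 for siITM2A and -0.61 for control. ANKRD46 and METAP1 had fitted differences of -0.06 and -0.03. The error of this comparison is set by how evenly a gene's siRNA differences ran in the 2 lines, which was part of how the 4 genes were chosen, so their values carry no test. Over all genes 28.5% were called between the lines by limma. DKK2 was higher in A673, by 1.02 ± 0.14 (SE, limma adjusted p = 0.000721).

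The relatives of the 4 genes were examined through lists of the same biochemical step or protein family. Of 7 measured proteins with a GOLD domain and a seven-helix membrane part, the family of TMEM87B, 0 were called in either direction with siDKK2 against control (limma, 1 at an unadjusted p under 0.05, 0 with an intensity trend). Over all 18417 genes 2 were called (0.0109%), and 1598 had an unadjusted p under 0.05. A count of 0 in a list this small, here and in the lists below, therefore does not show that its genes were unchanged. The list's median differences were -0.13 and 0.01, against medians over all genes of -0.04 and -0.01. TMEM87A, the closest relative of TMEM87B and also a Golgi protein, stood at 6.48 with siDKK2 in A673, against 6.66 with siITM2A and 6.61 with control. In SK-N-MC it stood at 6.83 with siDKK2, 6.46 with siITM2A and 6.69 with control. Its differences from control, -0.13 and 0.15, had opposite signs in the lines. GPR180 had the largest decrease of the list shared by both lines, at -0.37 and -0.60 (adjusted p = 0.407), and WLS, the carrier that brings Wnt proteins to the cell surface, belongs to the same list.

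Of 13 measured enzymes that remove, acetylate or myristoylate the protein N-terminus, 0 were called with siDKK2 against control (limma, 1 at an unadjusted p under 0.05, 0 with an intensity trend). The list's median differences were -0.14 and -0.13. METAP2, the other cytosolic methionine aminopeptidase, stood at 7.73 with siDKK2 in A673, against 7.82 with siITM2A and 8.03 with control, and at 8.0, 7.94 and 8.06 in SK-N-MC. Its differences from control were -0.30 and -0.06 (adjusted p = 0.751). The mitochondrial METAP1D, a dim gene at 2.64 to 3.52, differed by 0.49 and -0.74. NMT2, an N-myristoyltransferase, had values of -0.49 and -0.50 (adjusted p = 0.459).

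Of 15 measured genes of carnosine handling and histidine methylation, 0 were called (limma, 2 at an unadjusted p under 0.05, 0 with an intensity trend), with medians of -0.08 and -0.03. PHYKPL differed by -0.48 and -0.37 (adjusted p = 0.417), and the peptide transporter gene SLC15A2 by 0.39 and 0.24 (adjusted p = 0.550). SLC15A3, another peptide and histidine transporter, differed by -0.66 and 0.37, opposite in sign between the lines. Against siITM2A, 0 genes of these 3 lists were called either, as against 0.0163% of all genes (limma, 2, 3 and 1 at an unadjusted p under 0.05 for the GOLD, N-terminus and carnosine lists). No relative in these 3 lists came as low in both lines as the gene it was set beside. That gene was chosen for its low values in this contrast and the relatives were not, so the choice largely set this result.

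**Figure D3:**
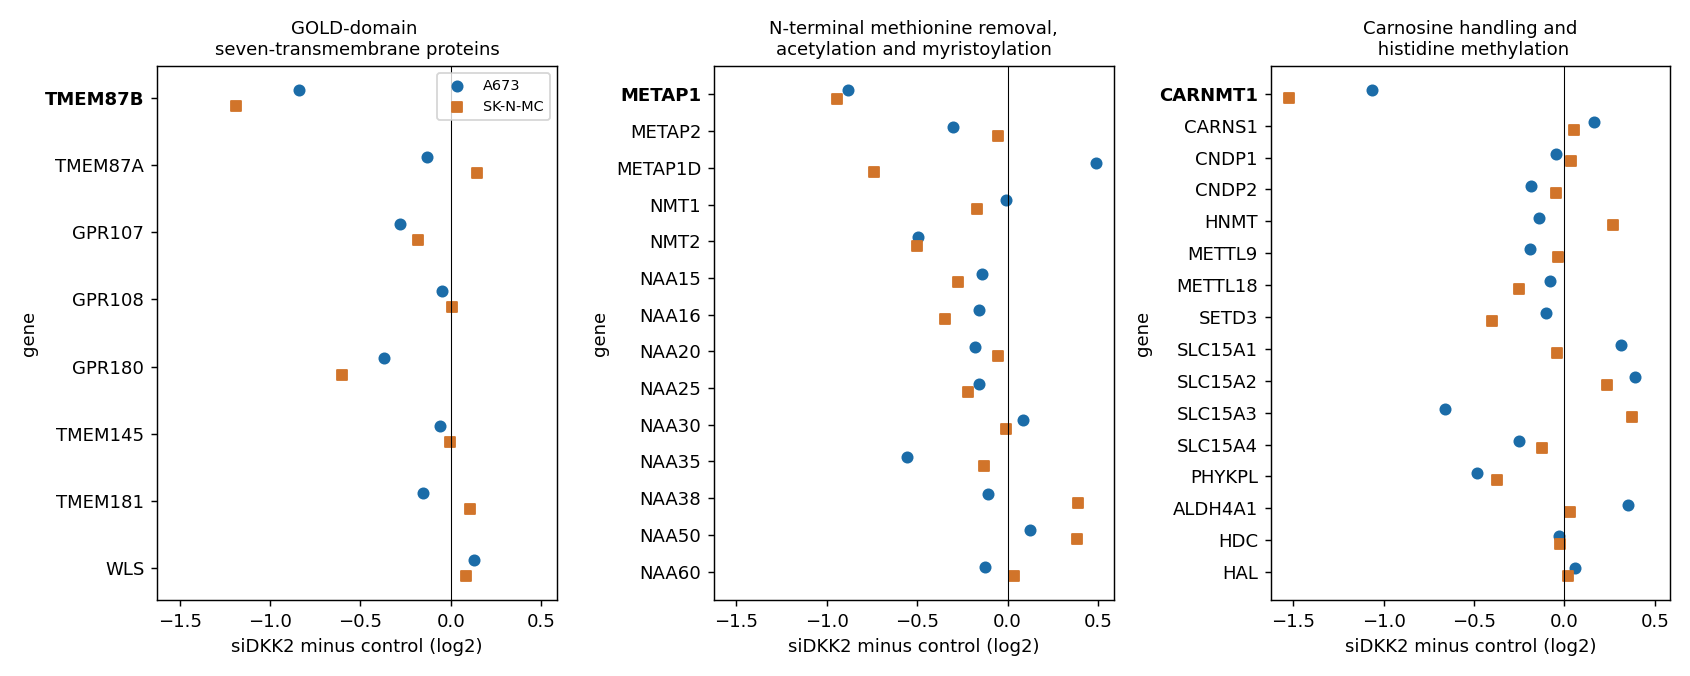
Difference between siDKK2 and control (x axis, log2) for the genes of 3 lists (y axis), each headed by the gene it was set beside, with circles for A673 and squares for SK-N-MC. TMEM87B, METAP1 and CARNMT1, which were chosen for low values in this contrast, lie further left in both lines than every listed relative.

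Genes beside the 4 on their chromosomes were examined as well, taking 2 protein-coding genes on each side in RefSeq order. All 16 were measured, and 0 were called for siDKK2 against control (limma, 1 at an unadjusted p under 0.05). Their differences ran between -0.63 and 0.55, 5 were lower and 4 higher in both lines, and 0 were 2-fold lower. RNF19A and SNX31, which flank ANKRD46, differed by -0.21 and -0.32 (RNF19A) and by -0.12 and -0.04 (SNX31). EIF4E, the cap-binding translation factor beside METAP1, differed by 0.10 and -0.03, and ADH5 on its other side by 0.07 and -0.41. The neighbours SPAG1, SNX31, TRPM6, NMRK1, EIF4E and ADH4 were dim. Their mean levels were 1.935 to 2.636, below the array medians of 3.35 to 3.44, and at such levels a decrease may not show.

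Direct Wnt targets and the RNA interference machinery were read beside the 4 genes, since DKK2 acts on the first and an siRNA uses the second. With so few genes called over all genes (0.0109%), a count of 0 in lists of this size does not show that their genes were unchanged. Of 15 Wnt targets 0 were called with siDKK2 against control (limma, 1 at an unadjusted p under 0.05, 0 with an intensity trend), with medians of -0.03 and -0.01. SP5, a Wnt-induced transcription factor, had values of 0.44 and 0.55 (adjusted p = 0.359). Of 13 genes of the RNA interference machinery 0 were called (limma, 1 at an unadjusted p under 0.05, 0 with an intensity trend), with medians of 0.01 and -0.01. DICER1, which cuts microRNA precursors, had the lowest values, at -0.65 and -1.05 (adjusted p = 0.231). It was also below control with siITM2A, by -0.37 and -0.84, and so differed less between siDKK2 and siITM2A (-0.28 and -0.20) than any of the 4 genes did. The 4 genes were chosen for low values in that contrast and DICER1 was not, so the choice largely set this order.

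The profiles most like those of the 4 genes were sought after removing each line's mean, by the root mean square distance over the 6 arrays in log2 units. Closest to the mean profile of the 4 was POLR3G, a subunit of RNA polymerase III, at 0.13. It was followed by DKK2 at 0.16 and SMAD1 at 0.16, against a median of 0.59 over all genes and 0.13 to 0.30 for the 4 genes themselves. The 4 genes were chosen for low values on the siDKK2 arrays, where the siRNA target DKK2 is low as well. Closeness to their mean profile, that of DKK2 included, is therefore a description and no sign of a link. SPRYD7, SHCBP1, the endoplasmic reticulum oxidase gene ERO1A, BNIP2, FNDC3A, SLC35F5 and ADAM9 followed at 0.19 to 0.22. The 4 genes were not equally alike. CARNMT1 and TMEM87B were 0.23 apart and ANKRD46 and METAP1, which had the largest and the smallest fitted difference from control of the 4, were 0.57 apart. ANKRD46 was closest to ATP6V1D (0.16), CARNMT1 to OIP5 (0.13), TMEM87B to POLR3G (0.10) and METAP1 to the receptor gene BMPR2 (0.06). BMPR2, like METAP1, was below control with siITM2A in both lines (-0.38 and -0.32).

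**Figure D4:**
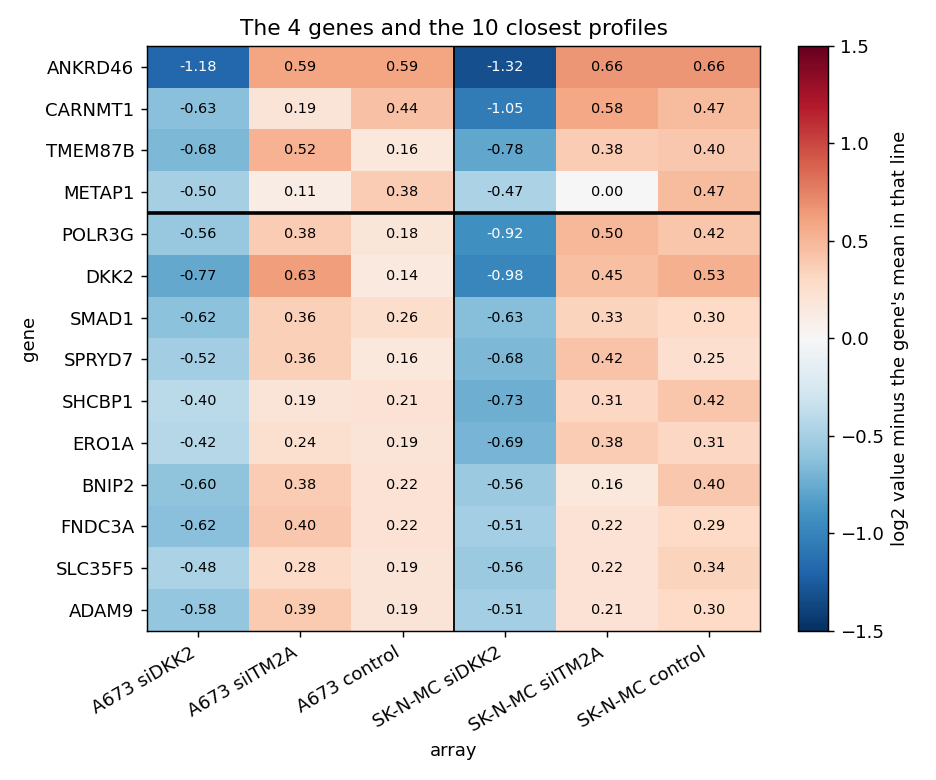
Log2 value minus the gene's mean in that line, by colour and number, for the 4 genes (above the line) and the 10 genes closest to their mean profile (rows) on the 6 arrays (columns). All 14 rows are lowest on the siDKK2 array of each line, from -1.18 for ANKRD46 to -0.40 for SHCBP1 in A673. The choice of the 4 genes, and of profiles close to theirs, set this pattern.

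Array medians over the 33297 probe sets lay between 3.35 and 3.44, and arrays of 1 line correlated across probe sets at 0.986 to 0.991. The label of the lines was checked on Ewing sarcoma markers, of which 7 were measured. The surface protein gene CD99 stood at 9.79 to 10.73 and the transcription factor gene NKX2-2 at 5.31 to 6.25. Leukocyte markers (5 measured) had array medians of 2.35 to 2.43 with siDKK2, 2.25 to 2.49 with siITM2A and 2.41 to 2.45 with control, and PTPRC stood at 1.896 to 2.09. Fibroblast and endothelial markers (6 measured) had array medians of 2.53 to 2.65, 2.44 to 2.61 and 2.56 to 2.58 in the same order, with COL1A1 at 5.80 to 7.23. DCN, a proteoglycan gene of the same list, stood at 2.16 with siDKK2, 2.25 with siITM2A and 2.18 with control in A673. SK-N-MC arrays had 5.23 with siDKK2, 4.09 with siITM2A and 4.28 with control, so it was above the list's medians in that line and highest with siDKK2. The part of these markers in the differences described was not tested.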

How the data were processed

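Total RNA of both cell lines was labelled and hybridised to Affymetrix whole-transcript arrays. Per the submitters' processing notes, Expression Console and RMA were used. RMA corrects background, normalizes between arrays and summarises probes. The authors deposited the resulting values, taken as log2 from their range. The sources used here state no version, settings or genome build. RMA compresses differences of dim probe sets.

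Gene names came from the platform annotation (19460 of 33297 probe sets with 1 symbol, 1754 with several, 12083 not listed). The probe set with the highest mean was kept per gene, leaving 18417 genes. limma 3.58.1 in R 4.3.3 was fitted to the 6 arrays together, with terms for siRNA and for line (2 residual degrees of freedom, 8.28 after moderation), and p-values were adjusted by Benjamini-Hochberg over all genes at a threshold of 0.05. The lines pair the arrays, per the labels. Nothing in the labels says that cultures were repeated. The error behind the p-values is therefore only how unevenly siRNA differences ran in the 2 lines, moderated towards that of all genes. The lists and members were chosen with earlier results of these data known. Named genes followed a rule (the 4 genes, the siRNA targets, the next genes by smaller decrease, the closest profiles, up to 4 per list, relatives and neighbours). BTG3 and DNAJA1 were named after their values were seen. The 4 genes were to be tested between the lines, but the choice of even genes shaped that test's error, so those tests are not reported. Simulated data were used to test the fit. Alternatives were the fit without the block, an intensity trend, a level filter, averaged probe sets, median-centred arrays and leaving out each array. The sequence of the siRNAs was not used here.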

Additional observations from a re-analysis of the deposited data

Results flagged for a closer look

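Of the 4 genes, 3 had differences between siITM2A and control that pointed in opposite directions in the 2 lines. The difference in A673 minus that in SK-N-MC was 0.38 for TMEM87B (0.36 and -0.02), -0.36 for CARNMT1 (-0.25 and 0.11) and 0.00894 for ANKRD46 (0.01 and -0.00139). Both ANKRD46 values and the SK-N-MC value of TMEM87B were close to no difference. The share of all genes with opposite signs was not counted. Sample titles give different ITM2A siRNA numbers for the lines, so by those titles line and siRNA cannot be told apart here. With 1 array per line and siRNA, the difference between the lines was not tested.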

How the results depend on the processing

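The differences of the 4 genes between siDKK2 and control, and between siDKK2 and siITM2A, kept their sign under all 11 alternatives run. The genes were chosen as lower in both lines, so the choice largely set this result. Leaving out the block, the intensity trend, the level filter and averaged probe sets did not change these differences. The median of the 4 genes was -1.15 against control (-1.35 to -0.95 leaving out 1 array) and -1.20 against siITM2A (-1.402 to -1.01). The ends of these ranges are fits without an siDKK2 array, which rest on the other line for that siRNA. For siITM2A against control the median was -0.03, with -0.1649 to 0.0568 leaving out 1 array. Counts of called genes over all genes depended on the settings. Against control they were 2, with 0 to 60 leaving out 1 array, 0 with no replicate block (no line term) and 7 with an intensity trend. Against siITM2A they were 3, with 1 to 50 leaving out 1 array, 0 with no replicate block, 16 with an intensity trend and 6 among genes at or above the median level. For siITM2A against control they were 2, with 0 to 4 leaving out 1 array and 0 with no replicate block. Leaving out siDKK2 in SK-N-MC gave the counts of 60 and 50, and leaving out control in SK-N-MC gave 45 against control. Leaving out siDKK2 in A673 or either siITM2A array gave 0 against control, either siITM2A array gave 1 against siITM2A, and either control array gave 18 against siITM2A. The cause was not tested. Between the lines 5256 genes were called (3729 to 5400 over the alternatives).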

Other observations

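MERTK, a receptor kinase gene beside TMEM87B, was lower with siDKK2 than with siITM2A (A673 -0.54, SK-N-MC -0.89) but close to control with siDKK2 (-0.16 and -0.01), since it stood above control with siITM2A (0.38 and 0.88). STEAP1, a membrane protein gene used as an Ewing sarcoma marker, differed from control by -0.98 and -0.23 with siDKK2 (A673 before SK-N-MC) and by -0.75 and -0.12 with siITM2A (limma adjusted p = 0.445 for siDKK2). COL1A1 differed from control by -0.98 and 0.27 with siDKK2. MERTK was chosen for mention after its values were seen.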
